A study of Mus musculus with 6 samples.

Results

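The 9 genes described here encode the first steps of insulin signalling: the insulin receptor (Insr), its 2 main substrates (Irs1 and Irs2), a regulatory and a catalytic subunit of phosphoinositide 3-kinase (Pik3r1 and Pik3ca), 2 Akt kinases (Akt1 and Akt2) and 2 Rab GTPase-activating proteins (Tbc1d1 and Tbc1d4). They were chosen by symbol from the 34714 gene symbols of the counts table, with no threshold on their values. The choice was made with earlier results of these data known, so counts among the 9 are not independent of the data. All 9 were among the 15788 genes with enough reads to be tested. RNA came from the gastrocnemius (Gas) muscle of 3 WT mice and 3 M92KO mice, all 8 weeks old and without treatment, with 1 library for each mouse. M92KO mice lack miR-92b in every tissue and were purchased on a C57BL/6 background. The WT animals were age-matched C57BL/6 mice, and the methods describe males. All of them were kept on standard chow that was freely available. The supplementary methods describe an overnight fast of all mice before euthanasia, without naming the sequenced mice. The study asked how loss of this microRNA in skeletal muscle alters glucose handling and exercise capacity, and the comparison of genotypes shows here what the transcripts of the proximal insulin pathway did.

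Insulin binds its receptor on the muscle fibre, and the activated receptor phosphorylates the insulin receptor substrates, which recruit phosphoinositide 3-kinase to the membrane. The lipid product of this enzyme draws Akt to the membrane, where other kinases activate it. Akt then phosphorylates Tbc1d1 and Tbc1d4 (also called AS160), which in their unphosphorylated form hold back the Rab proteins of GLUT4 vesicles, so that the glucose transporter reaches the cell surface. Contraction acts on the same Rab-GAPs through AMP-activated kinase. Most control in this pathway lies in phosphorylation, which a count of transcripts does not measure.

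The deleted locus gives rise to a pair of mature microRNAs, and a microRNA recognises target transcripts mainly through its seed, bases 2 to 8. They are shown because 5 of the 9 genes carry a match to one of these seeds, with the seed in capitals and the sequences taken from RefSeq (GRCm38.p6). The third and the fourth are 2 other mouse microRNAs with the seed of miR-92b-3p, which were not deleted.
mmu-miR-92b-3p: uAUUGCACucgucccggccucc
mmu-miR-92b-5p: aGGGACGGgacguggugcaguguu
mmu-miR-92a-3p: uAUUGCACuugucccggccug
mmu-miR-25-3p: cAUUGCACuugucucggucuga

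Mature miR-92b-3p lies at chr3:89227126-89227147 and miR-92b-5p at chr3:89227165-89227188, both on the minus strand of GRCm38. The seed AUUGCAC is also that of miR-32-5p, miR-363-3p and miR-367-3p, whereas no other mouse microRNA in the RefSeq table has the seed GGGACGG. The counts table has no row for miR-92b itself, so the deletion was not checked in these libraries.

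Matches were searched on the transcript strand of the longest annotated 3′-UTR of each gene (GENCODE M21). For miR-92b-3p the letters were GTGCAATA (8mer), GTGCAAT (7mer-m8) and TGCAATA (7mer-A1), and a longer match was not also counted as a shorter one. For miR-92b-5p they were CCGTCCC (7mer-m8, or 8mer where an A follows) and CGTCCCA (7mer-A1). The matches found in the 9 genes are printed 5′ to 3′ on the transcript strand, with the match in capitals and 11 flanking bases on each side.
Insr, miR-92b-3p: tgtttggccttGTGCAATcttgagaactc
Irs2, miR-92b-3p, first match: gagcaggcataTGCAATAtttacatcctt
Irs2, miR-92b-3p, other match: taatagccataTGCAATAaaataaaatac
Pik3ca, miR-92b-3p: aaagaaaaactGTGCAATAatctcctgaca
Akt1, miR-92b-3p: gacgcgaccatGTGCAATgtgggctcatg
Tbc1d1, miR-92b-5p: ttggttctaatCCGTCCCctttccagtcc

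The capitals of these matches span chr8:3152590-3152596 in Insr, chr8:10985089-10985095 and chr8:10984709-10984715 in Irs2, chr3:32464482-32464489 in Pik3ca, chr12:112654388-112654394 in Akt1 and chr5:64350120-64350126 in Tbc1d1. For miR-92b-3p, 4 of the 9 genes (Insr, Irs2, Pik3ca and Akt1) thus held a 7mer or 8mer, as compared with 13.8% of 13669 tested genes with an annotated 3′-UTR. The single 8mer was in Pik3ca, and 2.74% of those genes held one. For miR-92b-5p, Tbc1d1 was the 1 gene with a match, against 5.57% of genes. Irs1, Pik3r1, Akt2 and Tbc1d4 had no 7mer or 8mer to either seed in these windows. With matches of 6 bases (TGCAAT) counted too, 7 of the 9 genes held one for miR-92b-3p, Irs1 and Pik3r1 among them, as compared with 26.1%. The 3′-UTRs searched ran from 877 bases in Akt1 to 5655 in Pik3ca, and the shares of all genes were not matched for this length. These are matches of letters, and binding to them was not measured.

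Before the genes themselves, the libraries need a description. Levels are given as CPM, counts scaled to the TMM-normalized library size. The libraries held 33160508 to 48209846 counts, with the M92KO totals all below the WT totals. M92KO replicate 1 stood apart: its Pearson correlation of log2 CPM with the other M92KO libraries was 0.985 to 0.986, as compared with 0.989 between those 2 libraries and 0.989 to 0.991 among WT libraries. It held the lowest value of the 6 libraries for 6 of the 9 genes and for 25.3% of all genes tested. It held the highest value for 1 of the 9 genes and for 25.1% of all genes tested. Fits without it are given beside some of the main results. Where it was the lowest library for a gene, leaving it out raises the M92KO mean by construction, so such a fit is no separate support. The edgeR quasi-likelihood test with Benjamini-Hochberg adjustment called 0 of 15788 genes (0%) at an adjusted p-value of 0.05, and 1955 passed an unadjusted p-value of 0.05, the threshold of the study. DESeq2 called 322 genes (2.04%) after adjustment. Replicates are taken as separate mice, and the labels give no batch or date for them.

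At the unadjusted threshold, 2 of the 9 genes were lower in M92KO Gas (Irs1 and Tbc1d4) and 0 were higher. Among all genes tested, 6.92% were lower and 5.47% higher by the same rule, which for 9 genes comes to less than 1 in each direction. No gene of the 9 passed after adjustment, in edgeR or in DESeq2, and by DESeq2 3 of them (Irs1, Irs2 and Tbc1d4) were lower without adjustment, as compared with 6.13% of all genes tested. Only the values of Irs1 did not overlap between the genotypes, 1 of 9 genes, as compared with 18.4% of all genes tested. The log2 fold change of M92KO relative to WT was negative for 5 genes and positive for 4, with a median of -0.10, and the median over all genes tested was -8.07e-05. In bulk muscle, a lower value can come from fewer cells that express the gene or from less RNA in each of them, and these cannot be told apart.

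**Figure D1:**
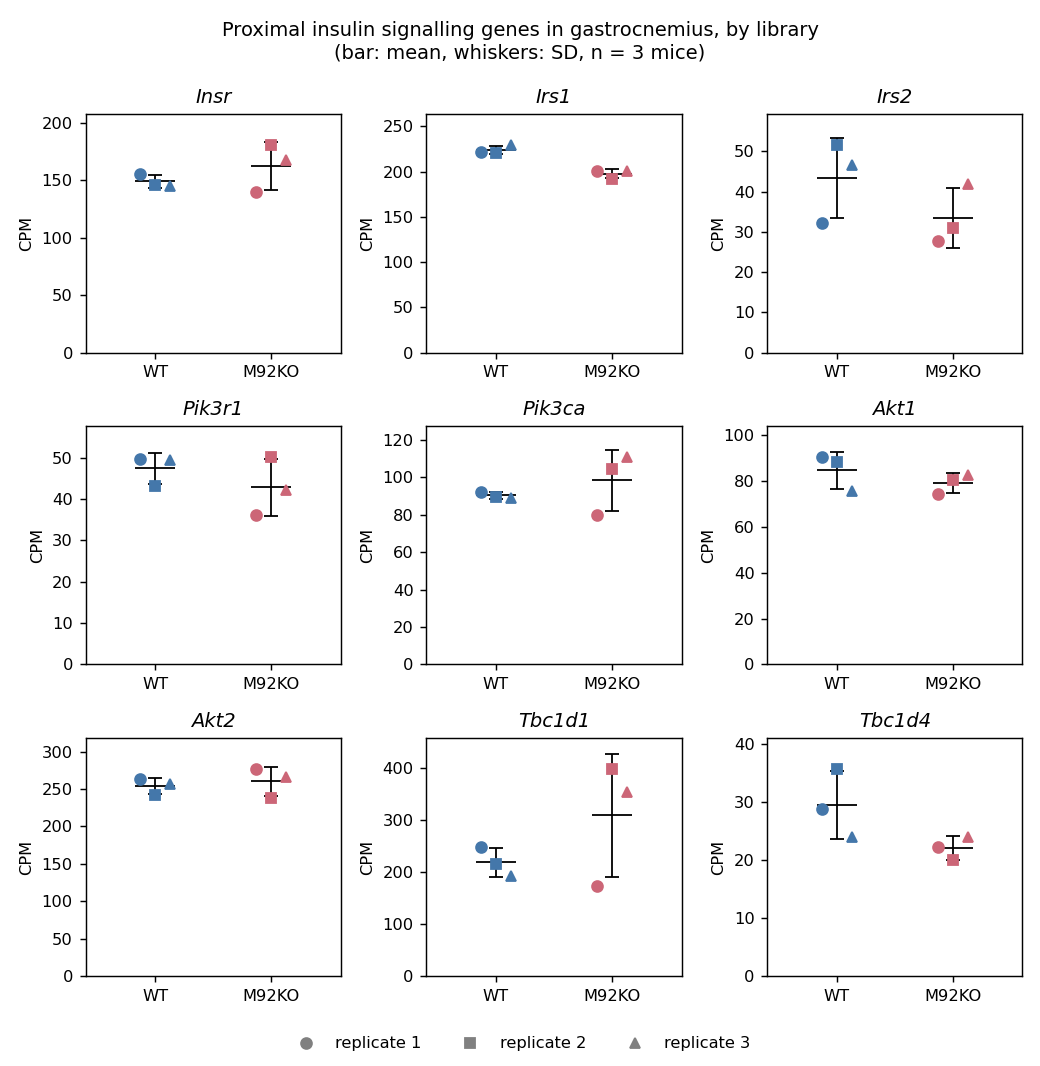
CPM (y axis from 0) of the 9 genes in the 3 WT and 3 M92KO libraries, with a symbol for each replicate number, the mean as a bar and the SD as whiskers. The M92KO values of Irs1 (192 to 201 CPM) all lie below the WT values (221 to 229 CPM), and M92KO replicate 1 (circle) is far below the other M92KO libraries for Tbc1d1.

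Insr encodes the receptor itself, which lies at chr8:3122061-3279617 (minus strand; GRCm38 here and for all genes below). Its normalized level, in CPM, was 156, 146 and 145 in WT and 140, 180 and 168 in M92KO mice. The M92KO values fell on both sides of the WT range, with 2 libraries above it and 1 below. The means were 149 ± 5.78 and 163 ± 20.9 CPM (SD, n = 3), with a log2 fold change of 0.12 (95% interval -0.10 to 0.35, edgeR adjusted p = 0.663). Without M92KO replicate 1 the log2 fold change was 0.22 (edgeR adjusted p = 0.0902).

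Irs1 and Irs2 encode the docking proteins that carry the signal from the receptor. Irs1, at chr1:82233101-82291416 on the minus strand, was measured at 222, 221 and 229 CPM in WT and at 201, 192 and 200 CPM in M92KO mice. All M92KO libraries were below all WT libraries, and the spread within each genotype was small: the means were 224 ± 4.40 and 198 ± 4.93 CPM (SD, n = 3), a difference of -11.7%. Counting error alone comes to 0.957% to 1.26% in a library for Irs1, beside coefficients of variation of 1.97% in WT and 2.49% in M92KO mice. The log2 fold change was -0.18 with an SE of 0.0614 (95% interval -0.32 to -0.04), the edgeR adjusted p-value was 0.312, and the exact permutation test gave p = 0.1, the smallest that 3 against 3 mice allow. The direction held without any 1 library (-0.19 to -0.16), yet the unadjusted threshold was passed in 3 of these 6 fits. With offsets that correct for GC content and length in each library, the log2 fold change was -0.12. The unadjusted threshold was then not passed (edgeR unadjusted p = 0.118, adjusted p = 0.519). Exons of Irs1 overlap an annotated gene on the other strand, Gm9747, which has no row in the table, and whether counting used the strand is not given in the sources used here.

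Irs2, at chr8:10984681-11008458 on the minus strand, was measured at 32.2, 51.5 and 46.5 CPM in WT and at 27.7, 30.8 and 41.9 CPM in M92KO mice. The lowest WT library, replicate 1, was close to the lower pair of M92KO libraries, and M92KO replicate 3 lay inside the WT range. Its means of 43.4 ± 10.02 and 33.5 ± 7.44 CPM (SD, n = 3) gave a log2 fold change of -0.37 (95% interval -0.82 to 0.07, edgeR adjusted p = 0.493). Left-out libraries moved this value between -0.57 and -0.23. With a coefficient of variation of 23.1% in WT, Irs2 was the most variable of the 9 genes among WT mice, whereas Irs1 (1.97%) and Pik3ca (2.02%) varied least. An antisense transcript that overlaps Irs2, 9530052E02Rik, had 4 to 22 counts in each library, against 962 to 2218 counts of Irs2.

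Pik3r1 encodes the regulatory subunits (p85α and shorter forms) that bind the phosphorylated substrates, and Pik3ca the catalytic subunit p110α. Pik3r1, at chr13:101680563-101768217 on the minus strand, was measured at 49.7, 43.2 and 49.5 CPM in WT and at 36.2, 50.1 and 42.1 CPM in M92KO mice, with 1 M92KO value above the WT range and 2 below it. Its log2 fold change was -0.15 (95% interval -0.42 to 0.12, edgeR adjusted p = 0.671). Leaving out 1 library gave -0.28 to -0.04, and 1 of these fits, without M92KO replicate 2, passed the unadjusted threshold. Pik3ca, at chr3:32397671-32468486 on the plus strand, was measured at 92.5, 89.4 and 89.2 CPM in WT and at 79.8, 105 and 111 CPM in M92KO mice. As with Insr, M92KO replicate 1 lay below the WT values and the other two above them. The log2 fold change of Pik3ca was 0.12 (95% interval -0.14 to 0.38, edgeR adjusted p = 0.721), and 0.25 without M92KO replicate 1 (edgeR adjusted p = 0.0550).

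Akt1 and Akt2 encode closely related kinases, of which Akt2 is the isoform best known for insulin-stimulated glucose uptake. Akt1, at chr12:112653821-112674884 on the minus strand, was measured at 90.3, 88.1 and 75.5 CPM in WT and at 74.4, 80.4 and 82.8 CPM in M92KO mice. The genotypes overlapped, with a log2 fold change of -0.10 (95% interval -0.29 to 0.10, edgeR adjusted p = 0.709). Akt2, at chr7:27591552-27640826 on the plus strand, was measured at 263, 242 and 257 CPM in WT and at 277, 238 and 266 CPM in M92KO mice. The log2 fold change of Akt2 was 0.03 (95% interval -0.14 to 0.21, edgeR adjusted p = 0.905), the smallest of the 9 genes, and its sign turned when WT replicate 2 (-0.0015) or M92KO replicate 1 (-0.014) was left out. These intervals leave room for a modest difference in either direction.

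Tbc1d1 and Tbc1d4 encode the Rab-GAPs at the end of this cascade, and theirs were the largest log2 fold changes of the 9 genes, with opposite signs. Tbc1d4, at chr14:101442360-101609191 on the minus strand, was measured at 28.9, 35.8 and 24.0 CPM in WT and at 22.4, 20.03 and 24.1 CPM in M92KO mice. The highest M92KO library just reached the lowest WT library, so that the genotypes overlapped by this 1 value. The means were 29.5 ± 5.91 and 22.2 ± 2.03 CPM (SD, n = 3), a difference of -25.0%, with a log2 fold change of -0.41 and an SE of 0.142 (95% interval -0.74 to -0.09, edgeR adjusted p = 0.314). Leaving out 1 library gave -0.54 to -0.25, and 4 of the 6 fits passed the unadjusted threshold.

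Tbc1d1, at chr5:64156305-64351486 on the plus strand, was measured at 248, 214 and 193 CPM in WT and at 174, 398 and 354 CPM in M92KO mice. M92KO replicates 2 and 3 were above every WT library and M92KO replicate 1 was below every one. This gave means of 218 ± 27.7 and 309 ± 118 CPM (SD, n = 3) and a log2 fold change of 0.50 with a wide 95% interval (-0.10 to 1.09), with an edgeR adjusted p-value of 0.493. Without M92KO replicate 1 the log2 fold change was 0.78, and Tbc1d1 was then the 1 gene of the 9 with a call after adjustment (edgeR adjusted p = 0.0122), in a fit that called 401 of 16058 genes (2.5%). In the same fit Insr, Pik3ca and Tbc1d1 were higher at the unadjusted threshold, 3 of 9 genes, as compared with 9.62% of all genes tested. M92KO replicate 1 was the lowest library for all 3, so leaving it out raised them by construction. Irs1 and Tbc1d4 were lower in that fit, 2 of 9 genes, as compared with 8.96% of all genes tested. The other M92KO libraries lowered the value of Tbc1d1 when left out, to 0.27 without replicate 2 and 0.39 without replicate 3. Myh2, the myosin heavy chain of fast oxidative (IIa) fibres, was likewise above every WT library in M92KO replicates 2 and 3 only: it was measured at 2124, 2239 and 1612 CPM in WT and at 2018, 3575 and 4099 CPM in M92KO mice, where replicate 1 lay inside the WT range, with a log2 fold change of 0.70 (edgeR adjusted p = 0.314). Myh2 had the smallest p-value of 10 fast fibre genes, whose median log2 fold change was 0.02. The summed level of these 10 genes did not follow Myh2. It was 110429, 114119 and 123826 CPM in WT and 120597, 110823 and 110779 CPM in M92KO mice. The part of fibre composition in the value of Tbc1d1 was not tested.

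**Figure D2:**
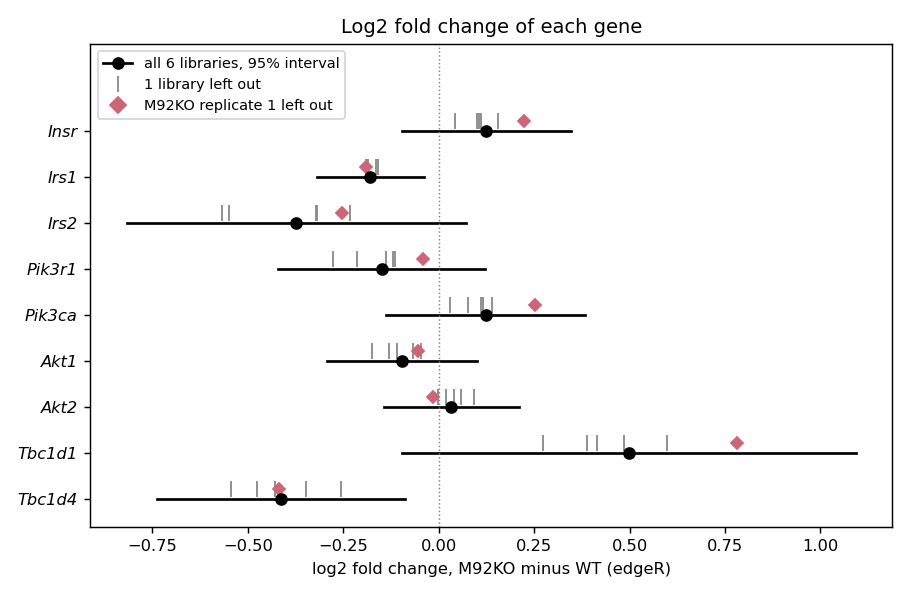
Log2 fold change of M92KO relative to WT (x axis) for each gene from edgeR, with the fit of all 6 libraries as a black point and its 95% interval as a line, fits without 1 library as grey ticks, and the fit without M92KO replicate 1 as a red diamond. The intervals of Irs1 and Tbc1d4 lie below 0, and the diamond of Tbc1d1 lies at 0.78.

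Between genes, levels can be compared only per transcript length. On the scale of CPM per kilobase of the longest protein-coding transcript, the order in WT Gas was Akt2 (55.9 ± 2.41), Tbc1d1 (33.8 ± 4.27), Akt1 (31.5 ± 2.98), Irs1 (24.5 ± 0.482), Insr (16.0 ± 0.618), Pik3ca (10.1 ± 0.205), Irs2 (6.86 ± 1.58), Pik3r1 (6.67 ± 0.520) and Tbc1d4 (4.56 ± 0.911), each as mean ± SD of 3 mice. Tbc1d1 and Akt1 overlapped in WT libraries, as did Irs2 and Pik3r1, and the other neighbours in this order did not. In M92KO mice the order was the same except that Pik3r1 (6.02 ± 0.984) stood above Irs2 (5.29 ± 1.18), with overlapping values. Tbc1d1 (47.7 ± 18.3) overlapped both Akt2 (57.2 ± 4.39) and Akt1 (29.4 ± 1.62) in M92KO mice. With the union of all exons as the length, Irs1 (24.5) stood above Akt1 (20.7) in WT. In M92KO mice that length put Tbc1d1 (41.7) above Akt2 (36.5), Irs1 (21.6) above Akt1 (19.3) and Irs2 (5.29) above Pik3r1 (4.25). The order of Irs2 and Pik3r1 in M92KO mice thus depended on the length used. The lowest of the 9, Tbc1d4, still had a mean CPM above that of 64.1% of all genes tested.

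**Figure D3:**
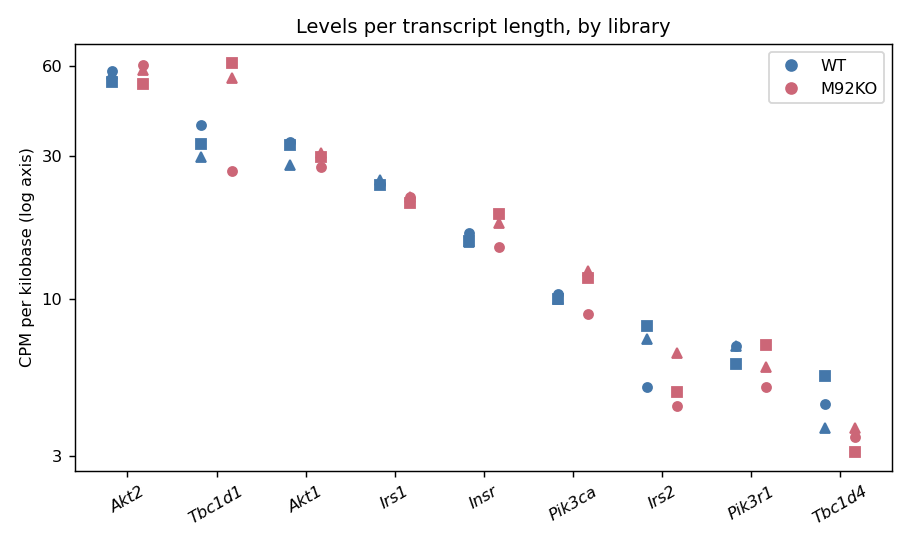
Level of each gene in CPM per kilobase of its longest protein-coding transcript (y axis, log scale) in each library, with WT in blue, M92KO in red and a symbol for each replicate number. Genes are ordered by their WT mean, from Akt2 at 55.9 to Tbc1d4 at 4.56, and the M92KO values of Tbc1d1 are the most spread.

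Ratios of related genes within a library do not depend on how libraries are scaled, and 4 were compared. The log2 ratio of Pik3r1 to Pik3ca, a regulatory against a catalytic subunit, was -0.89, -1.05 and -0.85 in WT and -1.14, -1.06 and -1.39 in M92KO mice. These values did not overlap, and the mean difference was -0.27 (exact permutation p = 0.1, the smallest possible, and 0.4 after Benjamini-Hochberg adjustment over the 4 ratios). WT replicate 2 and M92KO replicate 2 were, however, nearly equal. The log2 ratio of Tbc1d4 to Tbc1d1 was -3.10, -2.58 and -3.01 in WT and -2.96, -4.31 and -3.88 in M92KO mice, a difference of -0.82 (exact permutation p = 0.3) that grew to -1.20 without M92KO replicate 1. In M92KO replicate 1 this ratio was inside the WT range. For Akt2 over Akt1 the difference was 0.12 (exact permutation p = 0.4), and for Irs1 over Irs2 it was 0.19 (exact permutation p = 0.5), both with overlapping values. Per transcript length, Akt2 stood above Akt1 by a ratio of 1.63 to 2.20 in the 6 libraries, Irs1 above Irs2 by 2.97 to 5.01, and Tbc1d4 was at 0.0503 to 0.166 of Tbc1d1.

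**Figure D4:**
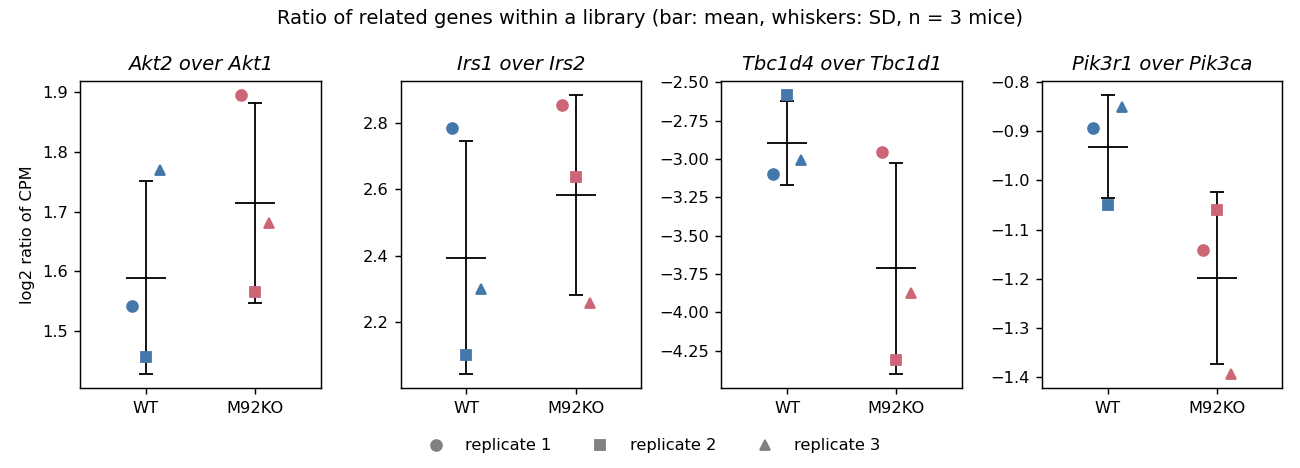
Log2 ratio of CPM of 4 pairs of related genes (y axis, scaled to each pair) in each library, with the mean as a bar and the SD as whiskers. The Pik3r1 to Pik3ca ratio of every M92KO library is below that of every WT library, whereas the other ratios overlap.

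The genes with and without a seed match can be read side by side. Of the 4 genes with a miR-92b-3p match, Insr (0.12) and Pik3ca (0.12), which holds the 8mer, had positive log2 fold changes. Irs2 (-0.37) and Akt1 (-0.10) had negative ones. In the main edgeR fit none of the 4 passed the unadjusted threshold. In some other fits of all 6 libraries Irs2 did, such as DESeq2 (unadjusted p = 0.0462) and edgeR with the replicate block (unadjusted p = 0.0222). Insr passed it, as higher, in edgeR with GC and length offsets (unadjusted p = 0.0236). Both genes below that threshold in the main fit, Irs1 and Tbc1d4, had no 7mer or 8mer to either seed. Irs1 did hold a match of 6 bases to that of miR-92b-3p. Tbc1d1, with its match to miR-92b-5p, had a positive value in which M92KO replicate 1 went the other way.

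Beyond these 9 genes, 90 other genes of the pathway were listed by role and 89 were tested. At the unadjusted threshold 7 of them were lower and 2 higher, 7.87% and 2.25% of those tested, as compared with the 6.92% and 5.47% of all genes. After adjustment 0 passed in edgeR and 3 in DESeq2 (Slc2a4, Gab1 and Pik3c2a, 3.37% against 2.04% of all genes). Their median log2 fold change was 0.02, and the values of 17 of them did not overlap (19.1%, as compared with 18.4% of all genes tested). Without M92KO replicate 1, 9 were lower and 18 higher, in a fit with 8.96% of all genes lower and 9.62% higher.

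Among the other receptors and adaptors, 1 of 10 was lower: Gab1, a docking protein related to the IRS proteins, was measured at 41.8, 48.7 and 45.8 CPM in WT and at 36.5, 35.8 and 33.1 CPM in M92KO mice (log2 fold change -0.37, edgeR adjusted p = 0.179, DESeq2 adjusted p = 0.0162). Irs3 (-0.67) did not pass, and Irs4 had 0 counts in every library. Of 10 genes listed as modulators of the receptor or its substrates, Grb10, an adaptor that inhibits the receptor, was lower, at 52.7, 57.6 and 68.2 CPM in WT and 48.8, 48.6 and 46.7 CPM in M92KO mice (-0.31, edgeR adjusted p = 0.271). Sirt1 (-0.23) and Sh2b1 (0.16), an adaptor that enhances receptor activity, did not pass. The groups of Gab1 and of Grb10 did not overlap, which held for 18.4% of all genes tested.

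Of 8 other phosphoinositide 3-kinase genes, Pik3c2a, a class II enzyme, was lower, at 25.4, 28.8 and 28.5 CPM in WT and 17.8, 22.3 and 20.99 CPM in M92KO mice (-0.44, edgeR adjusted p = 0.186, DESeq2 adjusted p = 0.0216). Pik3c2b (0.15) and Pik3cd (-0.27) did not pass. Of 7 phosphatases that remove the lipid product 0 passed. The log2 fold change was 0.41 for Inpp4b and -0.10 for Inppl1.

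Among 14 genes that act on Akt, Phlpp1, a phosphatase of Akt, was lower (-0.23) and Ppp2ca, the catalytic subunit of protein phosphatase 2A, was higher (0.20), both with an edgeR adjusted p-value of 0.390. Trib1 (-0.33) did not pass. Of 10 Akt substrates, 2 were lower. Pde3b, a phosphodiesterase, stood at 2.14, 2.74 and 3.98 CPM in WT and 1.64, 1.65 and 2.12 CPM in M92KO mice (-0.71, edgeR adjusted p = 0.328). Foxo1, a transcription factor that Akt excludes from the nucleus, stood at 31.1, 31.9 and 35.2 CPM in WT and 27.0, 30.3 and 27.6 CPM in M92KO mice (-0.21, edgeR adjusted p = 0.352). Foxo3 (-0.21) did not pass.

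Downstream, among 19 genes of GLUT4 and its vesicle traffic, 1 was higher. Slc2a4, which encodes GLUT4, was measured at 852, 805 and 799 CPM in WT and at 1036, 1074 and 998 CPM in M92KO mice, so that every M92KO library, replicate 1 included, was above every WT library (0.34, edgeR adjusted p = 0.179, DESeq2 adjusted p = 0.00128). Stx4a (0.17), the plasma membrane syntaxin of these vesicles, and Rab10 (0.14), a Rab acted on by Tbc1d4, did not pass. Of 11 serine kinases known to act on IRS proteins, Prkci was lower (-0.23, edgeR adjusted p = 0.388), and Prkcd (0.18) and Prkcq (0.14) did not pass.

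**Figure D5:**
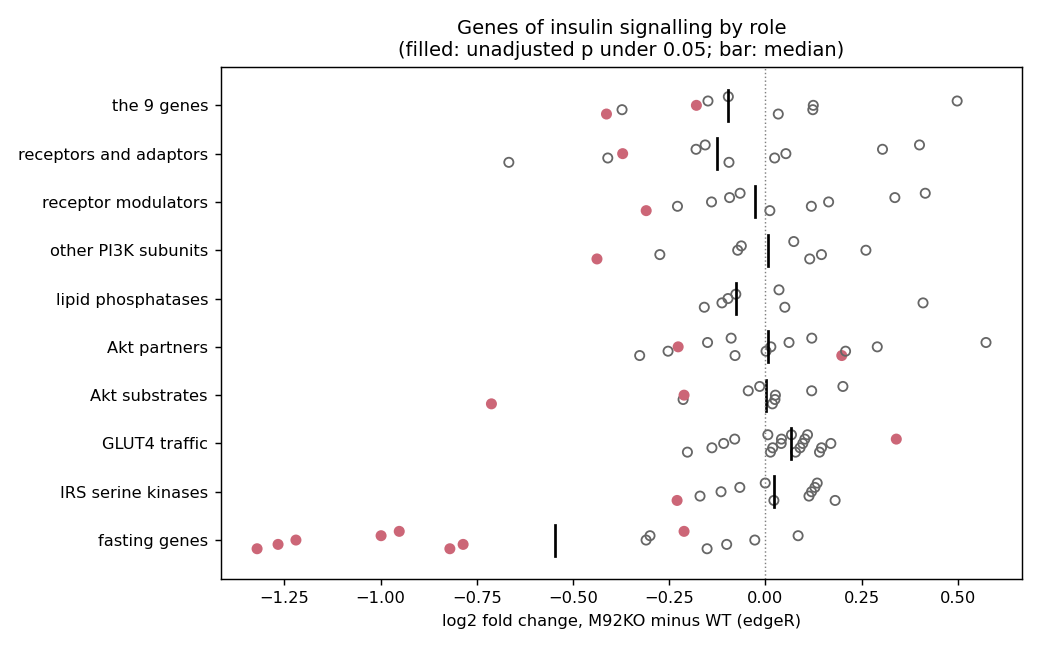
Log2 fold change of M92KO relative to WT (x axis, edgeR) for the genes of each role (rows), with 1 point for each gene, filled where the unadjusted p-value was under 0.05, and the median of each row as a bar. Medians of the insulin pathway rows lie between -0.13 and 0.07, and that of the fasting genes at -0.55. The lists were written with earlier results of these data known.

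Genes known to rise in muscle with fasting, through FoxO factors among others, were read beside the insulin pathway lists. Of 14 such genes 8 were lower and 0 higher, as compared with 6.92% and 5.47% of all genes tested, with a median log2 fold change of -0.55. The list was written with earlier results of these data known, so its count and its median are not independent of them. Their summed level was 3325, 4737 and 4494 CPM in WT and 3204, 2672 and 2835 CPM in M92KO mice. WT replicate 1 thus had the lowest summed level of the WT mice and the lowest Irs2 (32.2 CPM), whereas M92KO replicate 1 had the highest summed level of the M92KO mice and the lowest Irs2 (27.7 CPM). Pdk4, which encodes a kinase that shuts pyruvate dehydrogenase, was measured at 864, 1775 and 1251 CPM in WT and at 754, 481 and 435 CPM in M92KO mice (-1.22, edgeR adjusted p = 0.179), and Ucp3 had a log2 fold change of -0.999 (edgeR adjusted p = 0.237). Irs2 is itself known to respond to feeding, and Foxo1 belongs to both this list and the Akt substrates. The supplementary methods describe an overnight fast of all mice before tissue collection, in general terms and without naming the sequenced mice. The part of feeding state in the values of Irs2 and of the other genes was not tested.

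Genes that define skeletal muscle were abundant in all libraries, summing to 96364 to 110530 CPM, with 1 of 8 higher (Des, 0.23, and next Ttn, 0.11). For these and the fibre genes below, the shares of all genes tested were 6.92% lower and 5.47% higher. Of 10 fast fibre genes 1 was higher (Myh2, above), with Atp2a1 at -0.13, and their sum was 110429 to 123826 CPM in WT and 110779 to 120597 CPM in M92KO mice. Of 8 slow fibre genes, Tpm3 was lower (-0.31; next Atp2a2, -0.23), with sums of 245 to 332 CPM in WT and 178 to 275 CPM in M92KO mice. Markers of cells between the fibres were lower in part, beside 6.92% of all genes tested. Of 8 fibroblast markers 2 were lower (Dcn, -0.33; Col1a1, -0.55; sums 1591 to 1976 CPM in WT and 1073 to 1544 CPM in M92KO mice), of 8 endothelial markers 2 (Tie1, -0.23; Flt1, -0.21; 1150 to 1208 and 986 to 1222 CPM), and of 8 macrophage and leukocyte markers 2 (Ptprc, -0.53; Cd14, -0.81; 92.0 to 98.8 and 68.1 to 98.7 CPM). Of 8 Schwann cell markers 3 were lower (among them Mbp, -0.39, and Pmp22, -0.23; 134 to 184 and 134 to 141 CPM). M92KO replicate 1 held the lowest fibroblast, endothelial and macrophage sums. Without it, 1 fibroblast, 2 endothelial, 1 macrophage and 1 Schwann cell marker were lower, beside 8.96% of all genes tested, and 1 macrophage marker was higher. Fat cell genes (7 of 8 tested, as Lep had 0 to 6 counts; 346 to 400 and 349 to 424 CPM; Cidec, 0.95; Cfd, 0.84) and 5 red cell genes (74.0 to 223 and 143 to 336 CPM; Hbb-bt, 0.70; Hba-a1, 0.67) had 0 genes past the threshold, with median log2 fold changes of 0.62 and 0.66. The part of these cells in the values of the 9 genes was not tested.

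Across the 6 libraries, the gene whose log2 CPM followed each of the 9 most closely was sought among 13328 genes with a mean of at least 1 CPM. The closest were Snap29 to Insr (Pearson r = 0.996), Dpep1 to Irs1 (0.991), Ppp4r3a to Irs2 (0.989), Ctif to Pik3r1 (0.996), Fto to Pik3ca (0.998), Dhh to Akt1 (0.978), Smim27 to Akt2 (0.997), Mia3 to Tbc1d1 (0.995) and Rbl1 to Tbc1d4 (0.988). With 6 points and 13328 genes high values arise readily, and 204 genes had an r above 0.95 with Tbc1d1 and 192 with Pik3ca, but 13 with Akt1 and 21 with Irs2. The libraries that these correlations share include M92KO replicate 1, which was lowest for Insr, Pik3ca and Tbc1d1 alike.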

How the data were processed

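The authors deposited raw counts, the number of reads on each gene symbol in each of 6 libraries (SMARTer kit). The submitters' processing notes name GRCm38 and mm10. The aligner, the counting program and the strandedness are not given in the sources used here. No column was left unmatched to a sample. The 9 genes, the role lists and the markers were chosen with earlier results of these data known.

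With edgeR 4.0.16 in R 4.3.3, a model was fitted to the counts of all genes that passed filterByExpr (minimum count 10, minimum total 15), with TMM factors (0.981 to 1.03) and a quasi-likelihood test of M92KO against WT without a covariate, adjusted by Benjamini-Hochberg over 15788 genes. Values of single genes are CPM. Ratios used log2 CPM (prior count 2) and two-sided exact permutation tests. Correlations between libraries and likeness used log2 CPM. The 9 genes had 656 to 13016 counts a library, for which counting error alone comes to 0.877% to 3.90%. The scripts were tested on simulated data.

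Alternatives were DESeq2 1.42.0 (test, and size factors in edgeR), upper-quartile factors, the study's own steps (quantile normalization, log2 after adding 1, limma 3.58.1), other filters, a replicate block, offsets for GC content and length (lowess span 0.3, with 1031 genes lacking these values), and each library left out. Named genes are the 9, up to 3 of the smallest p-value in each role list, up to 2 in each marker or fasting list, and the closest gene to each of the 9. Of these, a few are not reported here. Positions and 3′-UTRs are from GENCODE M21 (25731 symbols matched directly, 433 by a synonym or identifier, 8550 not matched). Figures were made in Python 3.11.15 with pandas 2.3.3, scipy 1.17.1 and matplotlib 3.10.9. Protein sequences and other samples of the study were not analysed here.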

Additional observations from a re-analysis of the deposited data

How the results depend on the processing

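Of 135 refits of the 9 genes (15 alternatives each), 132 kept the direction and the side of the adjusted threshold. The exceptions were Tbc1d1, which passed without M92KO replicate 1 (0.78; range without 1 library 0.27 to 0.78), and Akt2, which turned to -0.0015 and -0.014 without WT replicate 2 and M92KO replicate 1 (range -0.014 to 0.093). The count of 132 does not measure size. The main fit called 0 of 15788 genes after adjustment, and Pik3ca, counted as kept, ran from 0.03 to 0.25 with 1 library left out. Leaving out 1 library gave 1222 to 2984 genes at the unadjusted threshold, the highest without M92KO replicate 1. In these fits 1 to 3 of the 9 genes were lower and 0 to 3 higher, and 1 to 18 other pathway genes were higher. Among them, the share of all genes in each direction was computed only without M92KO replicate 1 (8.96% lower and 9.62% higher). The counts of the other left-out fits have no such share beside them and are not read as a result about these genes. The genes called lower were not always the same. Without M92KO replicate 3 they were Irs1, Irs2 and Tbc1d4, and without WT replicate 1 they were Irs2 and Tbc1d4. Without M92KO replicate 2 the 1 gene lower was Pik3r1 (-0.28), and Irs1 and Tbc1d4 were not called. Of the 9 genes, 1 was lower with GC and length offsets (Tbc1d4), with these offsets and the replicate block (Irs2), and with quantile normalization and limma on 34714 symbols (Irs1), and 1 was higher without a filter on low counts (Tbc1d1) and with the offsets (Insr). Other pathway genes called lower numbered 4 with the offsets, with or without the block. Those called higher numbered 9 with the offsets, 5 with the offsets and the block, 4 with limma and 1 with the replicate block. Over all genes and both directions, the unadjusted threshold was passed by 2047 of 15788 with the offsets and 1710 with the offsets and the block. It was passed by 1691 of 15788 with the replicate block, 2287 of 34714 with limma and 2207 of 23231 without a filter. Counting matches of 8 bases left 1 gene for miR-92b-3p and 0 for miR-92b-5p. The causes were not tested. All ratios kept their sign, but with 1 library out the exact test could not go below 0.2.

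Deviations of same-numbered libraries correlated only weakly, at 0.0806, 0.0376 and 0.0151 for numbers 1, 2 and 3. The best correlation with another number was lower for numbers 1 and 2 (-0.0240 and 0.0107) and higher for number 3 (0.0365). These values do not settle whether the replicate numbers pair the samples. With the replicate block, 1691 genes passed the unadjusted threshold, Irs1 was at -0.18, Irs2 at -0.37, Tbc1d1 at 0.43 and Tbc1d4 at -0.40, and at that threshold Irs1 was no longer called, Irs2 was, and Tbc1d4 still was. With 3 mice a group, the intervals leave room for differences of the size of Irs1 in most of the 9 genes.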
